A study of Mus musculus with 7 samples.

Results

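The 6 myosin light chain genes examined, taken by symbol, were Myl10, Myl4, Myl6, Myl9, Myl12a and Myl12b. Of these 6, 5 were measured among the 19649 genes of the deposited gene table, and all 5 passed the filter for low values that left 16047 genes. Expression of Myl9 was not analysed here. The set was chosen by the measured difference in normalized counts between mutant and wild-type libraries, which Myl10 led. The values of that comparison are therefore a description, and counts of genes called are printed beside them only as background.

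The libraries came from long-term haematopoietic stem cells of mice, sorted by the absence of lineage markers and CD48 and the presence of Kit, Sca-1 and CD150. Of 7 libraries, 4 were Calr +/+ (Calr wildtype) MxCre, called WT1 to WT4, and 3 were Calr fl/fl (Calr del52/del52) MxCre, called M1 to M3. All mice of both groups carried MxCre, a Cre recombinase under an interferon-responsive promoter, and all received pI:pC, the double-stranded RNA mimic that switches it on. Cells were taken 14 days after induction began, and the labels read here state no age. MxCre acts in every cell that responds to interferon, so recombination was not limited to stem cells. The labels do not say whether each library was a separate animal, so the errors cover the spread from library to library, which may be technical. The samples are bulk RNA, in which fewer cells of a type and less RNA per cell cannot be told apart.

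Myosin II, the motor that pulls on actin filaments, is built from heavy chains that each bind 1 regulatory and 1 essential light chain. Phosphorylation of the regulatory light chain by myosin light chain kinase or by the ROCK kinases switches the motor on, and a phosphatase switches it off. Myl12a, Myl12b and Myl9 encode regulatory light chains of non-muscle and smooth muscle myosin. Myl6 encodes the essential light chain of the same motors, and Myl4 is the essential light chain of the atrium and of embryonic muscle. Myl10 encodes a regulatory light chain that was first described in precursor lymphocytes. In blood cells myosin II drives cell division, migration and the shedding of platelets.

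Reads counted per library ranged from 21325340 to 28710304. Calr had 15922 to 18606 normalized counts (reads divided by the authors' size factor of that library) in wild-type libraries. In mutant libraries it had 14239 to 15724, lower without overlap, as 4.34% of all genes were. The log2 difference was -0.15 (SE 0.15). It was -0.22 (SE 0.16) against WT1 and WT2 and -0.08 (SE 0.14) against WT3 and WT4. The allele alters the coding sequence, so this level checks the labels only weakly. The sort markers Kit (2976 to 26511 normalized counts) and Ly6a, which encodes Sca-1 (2323 to 6363), were present in all libraries. Their presence does not measure the purity of the sort. Wild-type 3 and 4 stood apart from the other 5 libraries. The slope of a library's log2 deviations on log10 exonic length was 0.81 in both of them and between -0.58 and 0.03 in the others. Between the wild-type pairs, limma called 8810 of 16047 genes (54.9%) at an adjusted p of 0.05. The titles of WT3 and WT4 and of M1 and M2 carry numbers of a single series, and no label says what that series marks. For the light chains measured among the 6, each difference is therefore given against each wild-type pair as well.

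Myl10 (ENSMUSG00000005474.9) lies on the plus strand of chromosome 5, from 136693146 to 136701094 in GRCm38. RefSeq gives it 3 start sites, and each is also the start of a GENCODE transcript model. The 250 bases before each site are printed because the transcript values below differ so much between them. Myl10-202 starts after chr5:136692896-136693145, which lies upstream of every model. Myl10-203 starts after chr5:136693426-136693675, inside the first intron of Myl10-201 and Myl10-202. Myl10-204 starts after chr5:136693927-136694176, inside the first intron of those models and of Myl10-203. The sequences are those of RefSeq on GRCm38.p6, plus strand, 5′ to 3′. Capitals mark matches to the searched motifs, which are the GATA motif AGATAA (here as its reverse complement) in the first and the ETS core AGGAAG in the second window.
Before Myl10-202: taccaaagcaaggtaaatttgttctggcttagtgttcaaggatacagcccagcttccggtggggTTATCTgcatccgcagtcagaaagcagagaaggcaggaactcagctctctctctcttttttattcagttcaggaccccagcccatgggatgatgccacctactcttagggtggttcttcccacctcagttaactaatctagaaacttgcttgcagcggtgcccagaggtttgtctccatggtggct
Before Myl10-203: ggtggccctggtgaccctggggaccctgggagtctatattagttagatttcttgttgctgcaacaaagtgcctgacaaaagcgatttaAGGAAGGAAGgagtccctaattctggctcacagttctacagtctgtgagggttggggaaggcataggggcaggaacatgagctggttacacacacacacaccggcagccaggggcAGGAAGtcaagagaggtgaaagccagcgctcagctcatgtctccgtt
Before Myl10-204: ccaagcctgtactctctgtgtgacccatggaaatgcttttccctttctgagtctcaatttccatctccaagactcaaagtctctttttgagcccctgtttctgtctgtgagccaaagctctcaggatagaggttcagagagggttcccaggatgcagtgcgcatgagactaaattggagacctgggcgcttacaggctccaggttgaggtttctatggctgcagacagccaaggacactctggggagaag

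The window before Myl10-203 held 3 matches to AGGAAG, of which the first pair overlap each other, and none to the other motifs. The window before Myl10-202 held 1 GATA match, and that before Myl10-204 held no match. Searched on both strands were the ETS core AGGAAG, the GATA motif AGATAA, the RUNX motif TGTGGT, the STAT motif TTCNNNGAA, the E-box CAGCTG, the TATA motif TATAAA, the ER stress element and the CArG box. Of 32851 RefSeq windows of the same length, 29.5% held AGGAAG and 9.99% held AGATAA. The STAT motif, at 7.02% of windows, and the ER stress element, at 0.113%, had no match in the Myl10 windows. A match is only a run of letters and no evidence of binding. The CArG box, bound by serum response factor and found in 1.47% of windows, matched once before Myl9 (CCTAATAAGG). It also matched once before a RefSeq start inside Myl6 (CCTTATATGG), where an AGGAAG match overlaps it. The windows of Myl4 and Myl12b held no match, and that of Myl12a held 1 AGGAAG and 1 E-box.

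Myl10 was higher in every mutant library than in every wild-type library. Its normalized counts were 803, 1534, 6043 and 3532 in WT1 to WT4. In M1 to M3 they were 20596, 8454 and 27085. In order of level, WT1 and WT2 were lowest, WT3 and WT4 lay between, and the mutant libraries were highest. The lowest mutant library, M2, was 1.40 times the highest wild-type library, WT3, and lay nearer to it than to M1 or M3. Across the 7 libraries Myl10 spanned 33.7-fold, with 735 to 22415 reads behind each value.

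Wild-type libraries averaged 2978 ± 2346 normalized counts (SD, n = 4) and mutant libraries 18711 ± 9457 (SD, n = 3), a 6.28-fold difference. On the scale of log2(normalized count + 1) the difference was 2.89 (SE 0.69), the 9th highest of the 16047 genes. Groups that do not overlap with the mutant higher occurred in 840 genes (5.23%), Myl10 among them. Limma called 0 of 16047 genes over all 7 libraries (0%), with 1365 at an unadjusted p under 0.05; edgeR also called 0, with 1639 unadjusted, and DESeq2 called 107 (0.667%). DESeq2 called 47 genes (0.293%) higher and 60 (0.374%) lower.

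Against WT1 and WT2 alone the log2 difference of Myl10 was 3.92 (SE 0.44), and against WT3 and WT4 alone it was 1.86 (SE 0.45). As background, these fits called 38 (0.237%) and 3165 (19.7%) of 16047 genes higher, and 0.318% and 42.6% in either direction. Within the shared title series (2 mutant and 2 wild-type libraries) the difference of mean log2 values was 1.51. Outside it (1 mutant and 2 wild-type libraries) it was 4.61. Adding the length slope to the model gave 3.53, in a fit that called 99 genes (0.617%) higher and 0.791% in either direction. The direction was the same in all of these, which no choice of libraries could have changed because the groups do not overlap. The size varied by more than 1.5 times with the wild-type libraries chosen.

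**Figure D1:**
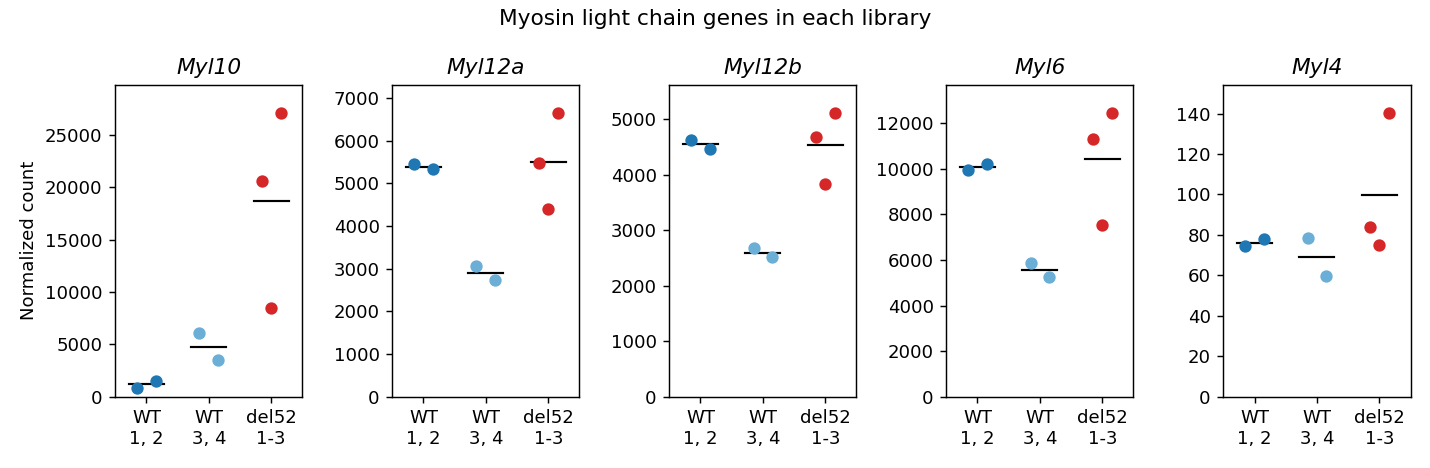
Normalized counts of the 5 measured light chain genes, on a linear axis from 0 that differs between genes; each point is 1 library, in dark blue for WT1 and WT2, light blue for WT3 and WT4 and red for the 3 Calr del52/del52 libraries, and bars are means. Myl10 runs from 803 to 27085 with every mutant point above every wild-type point, while Myl12a, Myl12b and Myl6 are lowest in WT3 and WT4.

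The wild-type pairs themselves differed in Myl10. Wild-type 3 and 4 averaged 4.10 times WT1 and WT2, a log2 difference of 2.06 (SE 0.30). Limma called it among the 4749 genes (29.6%) higher in WT3 and WT4. Of the other measured members, Myl12a, Myl12b and Myl6 went the opposite way between these pairs. Myl4 did not separate them (log2 difference -0.15, SE 0.31).

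Transcript models of Myl10 were read from the table of FPKM (fragments scaled by transcript length and by the fragments of the library). Myl10-203, of 598 bases in 6 exons, held most of the signal in every library, from 85.2% to 90.2% of the gene's summed FPKM. It had 39.6, 74.9, 295 and 175 FPKM in WT1 to WT4 and 996, 403 and 1303 in M1 to M3. The order of the libraries was that of the gene counts. Its log2(FPKM + 1) difference was 2.84 (SE 0.69).

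The minor models moved with it. Myl10-204, which starts downstream, had 4.65e-05, 3.56, 15.4 and 9.89 FPKM in WT1 to WT4 and 55.5, 23.4 and 111 in M1 to M3. Myl10-202, which starts upstream, had 1.18 to 6.47 FPKM in wild-type against 11.3 to 36.3 in mutant libraries. Myl10-201 had 2.01e-06 to 2.83 and 3.01 to 17.5. The retained-intron model Myl10-205 had 2.98 to 13.5 and 14.8 to 60.8. In all 5 models that passed the filter the lowest mutant value exceeded the highest wild-type value, which held for 1287 of 30156 tested models (4.27%). These models share exons of a gene chosen for this difference, so they add no separate support. Myl10-201 passed the filter mainly through the mutant libraries, because among wild-type libraries only WT3 reached 1 FPKM. The remaining model, the retained-intron model Myl10-206, stayed under 1 FPKM.

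The share of the main model within the gene varied little beside the 33.7-fold span of the gene. Myl10-203 took 89.2% ± 0.895 (SD, n = 4) of Myl10 FPKM in the wild-type and 87.0% ± 1.67 (SD, n = 3) in the mutant libraries, and the groups overlapped. Myl10-204 took 3.48% and 5.76% on average, also with overlap. These models share most exons, so the split rests on their first exons and on the estimates of Cufflinks. Limma called 0 of 30156 transcript models over all 7 libraries (0%), with 2077 at an unadjusted p under 0.05.

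**Figure D2:**
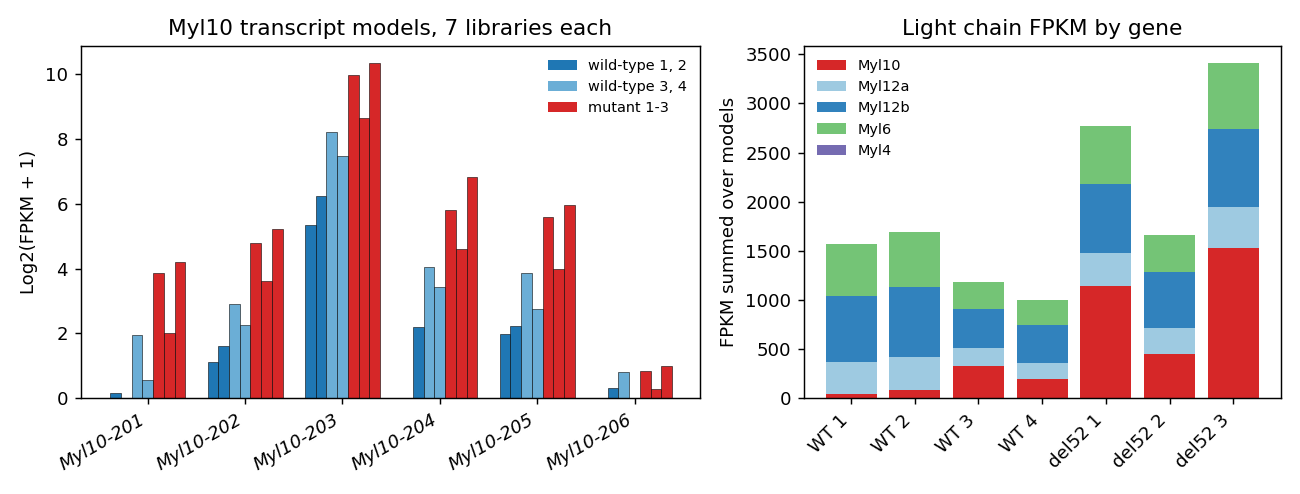
Left, log2(FPKM + 1) of the 6 Myl10 transcript models, 7 bars each in the order WT1 to WT4 and M1 to M3; right, FPKM summed over the models of each light chain gene, stacked by library. Myl10-203 is the tallest model in every library, and Myl10 forms 2.79% of the light chain stack in WT1 and 44.8% in M3; Myl4 is too low to see.

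On the FPKM scale, which allows levels of different genes to be compared per length, the order of the light chains changed between libraries. Summed over models, Myl10 had 43.9 and 84.5 FPKM in WT1 and WT2, 334 and 195 in WT3 and WT4, and 1140, 456 and 1529 in M1 to M3. Myl6 had 527, 555, 275 and 258 in WT1 to WT4 and 595, 379 and 672 in M1 to M3. Myl10 was thus 0.0834 times Myl6 in WT1 and 2.27 times Myl6 in M3. Among the 5 measured genes Myl10 held rank 4 in WT1 and WT2, rank 3 in WT4, rank 2 in WT3 and M2, and rank 1 in M1 and M3.

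Myl10 made up 2.79%, 4.99%, 28.2% and 19.4% of the summed light chain FPKM in WT1 to WT4. In M1 to M3 it made up 41.1%, 27.4% and 44.8%. The share of M2 lay just below that of WT3, so the groups overlapped by this measure even though they did not in the gene counts. The regulatory light chains other than Myl10 summed to 999 and 1049 FPKM in WT1 and WT2 and to 572 and 548 in WT3 and WT4. In M1 to M3 they summed to 1036, 824 and 1205, around WT1 and WT2 and above WT3 and WT4.

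Myl12a (ENSMUSG00000024048.15, chromosome 17, 70993656 to 71002878, minus strand, GRCm38) and Myl12b (ENSMUSG00000034868.9, 70973133 to 70990890) are neighbours that encode near-identical regulatory light chains. GENCODE lists a second gene under the symbol Myl12b (ENSMUSG00000117098.1, 70974119 to 71002208) that overlaps Myl12a. Reads in the overlap could have been split or dropped by the counting, so the levels of both genes are uncertain to that extent. The libraries were unstranded, and Myom1 on the other strand also overlaps the start of Myl12a.

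Myl12a had 5445, 5341, 3073 and 2741 normalized counts in WT1 to WT4 and 5467, 4392 and 6645 in M1 to M3. Wild-type 3 and 4 were low, and the mutant libraries lay around WT1 and WT2. Wild-type libraries averaged 4150 ± 1442 (SD, n = 4) and mutant libraries 5501 ± 1126 (SD, n = 3), a log2 difference of 0.46 (SE 0.30) with overlapping groups. It was 0.01 (SE 0.19) against WT1 and WT2 and 0.90 (SE 0.19) against WT3 and WT4.

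Myl12b followed the same course, with 4624, 4466, 2670 and 2518 normalized counts in WT1 to WT4 and 4670, 3832 and 5106 in M1 to M3. Its log2 difference was 0.39 (SE 0.27), with -0.01 (SE 0.17) against WT1 and WT2 and 0.80 (SE 0.16) against WT3 and WT4. Over the 7 libraries, Pearson's r between Myl12a and Myl12b was 0.994, as a description of libraries that fall into clusters. Of the Myl12b FPKM, 57.4% in wild-type and 59.7% in mutant libraries went on average to Myl12b-204. The models of the overlapping gene, Myl12b-205 and Myl12b-206, took 25.6% and 4.64% in the wild-type.

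Myl6 (ENSMUSG00000090841.2, chromosome 10, 128490860 to 128494145, minus strand, GRCm38) encodes the essential light chain that pairs with these regulatory chains. It had 9971, 10208, 5855 and 5256 normalized counts in WT1 to WT4 and 11305, 7559 and 12447 in M1 to M3. Again WT3 and WT4 were low and M2 lay between them and the rest. The log2 difference was 0.45 (SE 0.30), with 0.02 (SE 0.21) against WT1 and WT2 and 0.88 (SE 0.22) against WT3 and WT4. Its main models are Myl6-201 with 6 exons and Myl6-206 with 7. Myl6-201 took 41.8% to 56.9% and Myl6-206 29.5% to 35.7% of Myl6 FPKM over the 7 libraries, and both shares overlapped between groups.

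Myl6, Myl12a and Myl12b moved with the length slope of the libraries. In Myl6 the 7 libraries stood in the exact reverse order of their slopes, from M3, the highest, to WT4, the lowest. With the slope as a covariate the log2 differences were 0.01 for Myl6, 0.02 for Myl12a and 0.01 for Myl12b. With the title series as a covariate they were 0.56, 0.57 and 0.49, in a fit that called 1599 genes (9.96%) higher and 22.4% in either direction. Myl10 did not share this order: its highest wild-type values were in the pair where Myl6 was lowest, and r between Myl10 and Myl6 was 0.22 over the 7 libraries.

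Myl4 (ENSMUSG00000061086.12, chromosome 11, 104550663 to 104595753, plus strand, GRCm38) was low in every library. It had 74.3, 77.9, 78.4 and 59.9 normalized counts in WT1 to WT4 and 84.1, 75.0 and 140 in M1 to M3. Mutant 3 was the highest and M2 lay within the wild-type range. The log2 difference was 0.41 (SE 0.29), or 0.14 without M3. It was 0.33 (SE 0.34) against WT1 and WT2 and 0.48 (SE 0.35) against WT3 and WT4. Its FPKM, summed over models, ran from 2.31 to 6.22. Its main model, Myl4-201, had 1.70 to 2.03 FPKM in wild-type against 2.27 to 4.04 in mutant libraries, which did not overlap, beside the 4.27% of models given above. In this gene the wild-type pairs did not separate (log2 difference between them -0.15, SE 0.31).

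**Figure D3:**
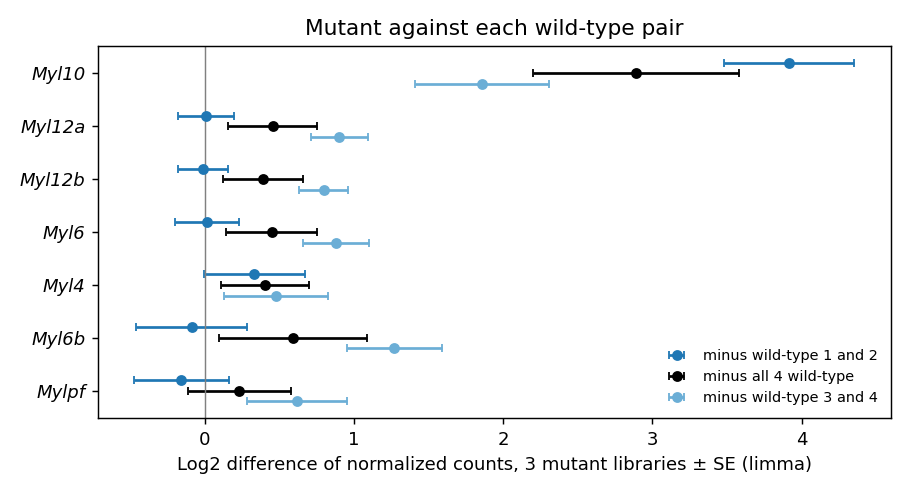
Log2 difference of normalized counts between the 3 mutant libraries and WT1 and WT2 (dark blue), all 4 wild-type libraries (black) or WT3 and WT4 (light blue) for 7 light chain genes, with limma's SE as bars. Myl10 lies at 1.86 or above in each comparison, while Myl12a, Myl12b and Myl6 lie at 0 within their SE against WT1 and WT2.

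Of 7 symbols listed for other myosin light chains, 3 were in the gene table and 2 passed the filter. Myl6b, an essential light chain encoded next to Myl6, had 93.1 to 378 normalized counts in wild-type against 170 to 349 in mutant libraries (log2 0.59, SE 0.49). Its difference was -0.09 against WT1 and WT2 and 1.27 against WT3 and WT4. Mylpf, the regulatory chain of fast skeletal muscle, had 62.6 to 128 and 83.9 to 154 (log2 0.23, SE 0.35), with -0.16 and 0.62 against the first and the second pair. Myl2, the ventricular regulatory chain, did not pass. All of these overlapped between groups, and 0 of 2 tested genes passed limma's test, which called 0% of all genes.

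Cux1, a transcription factor gene and the nearest measured gene before Myl10 at 125656 bases, had 5693, 6304, 18862 and 12104 normalized counts in WT1 to WT4. In M1 to M3 it had 8943, 9047 and 8109. The mutant libraries thus lay above WT1 and WT2, as for Myl10, but below WT3 and WT4. The log2 difference was -0.13 (SE 0.40) over all libraries, 0.54 against WT1 and WT2 and -0.80 against WT3 and WT4. Ift22, an intraflagellar transport gene 207056 bases after Myl10, had 0.24 (SE 0.21), with -0.01 and 0.50 against the first and the second pair. Both overlapped between groups.

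Partners of the light chains were taken from lists by function, and a gene passed where limma called it over all 7 libraries with no covariate. That fit called 0 of 16047 genes (0%). Each count of 0 passing genes, here and in the marker lists, was thus set by the fit and says nothing about the list. Against WT3 and WT4 alone, where 42.6% of all genes were called, every one of these lists had called genes. Of 14 myosin II heavy chain symbols 4 were tested, and 0 passed limma's test in either direction. Myh9, the main non-muscle heavy chain of blood cells, had 1173 and 1567 normalized counts in WT1 and WT2, 5856 and 5808 in WT3 and WT4, and 1236, 1556 and 1176 in M1 to M3. The mutant libraries thus matched the range of WT1 and WT2, with log2 differences of -0.05 and -2.15 against the first and the second pair. Myh10, another non-muscle heavy chain, had -0.49 (SE 0.44), or 0.18 against WT1 and WT2 and -1.15 against WT3 and WT4. Myh7b, a slow-muscle-type heavy chain, had -0.85 (SE 0.53). The other tested member, Myh14, was at 0 in WT1 and WT2 and at most 20.9 elsewhere.

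Of 18 tested unconventional myosins, which carry cargo or link membranes to actin and mostly use calmodulin as light chain, 0 passed. A total of 16 had negative differences, with a median log2 of -0.58 against 0.00 over all tested genes. The median was 0.09 against WT1 and WT2 and -1.27 against WT3 and WT4. Myo1g, Myo1f and Myo18a, the most abundant, had log2 differences of -0.51, -0.63 and -1.02. Their values against WT1 and WT2 were 0.02, 0.10 and 0.09. With the title series as a covariate 9 of 18 were called lower, beside 12.5% of all genes. Against WT3 and WT4 alone 15 of 18 were called lower, beside 22.8%.

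Kinases that phosphorylate the regulatory light chain ran from -0.87 to 0.45 in log2 difference. Of 12 tested, 0 passed, 6 were positive and 6 negative, and the median log2 difference was -0.01. Cit, citron kinase, which acts in cell division, was lower without overlap (log2 -0.73, SE 0.20), as 4.34% of all genes were. Against WT3 and WT4 alone 4 of 12 were called lower, beside 22.8% of all genes. Rock1 and Rock2, the ROCK kinases, had 0.04 (SE 0.15) and -0.16 (SE 0.18). Against WT1 and WT2 they had 0.10 and -0.02, and against WT3 and WT4 -0.03 and -0.31. Stk17b, a kinase of the death-associated family, had 0.14 (SE 0.16). Of 8 tested myosin phosphatase genes 0 passed, and the median was -0.15. The catalytic subunits Ppp1ca and Ppp1cb had 0.22 (SE 0.28) and -0.14 (SE 0.17), and the targeting subunit Ppp1r12c had -0.61 (SE 0.40). Against WT1 and WT2 these 3 had -0.23, -0.01 and 0.05, and against WT3 and WT4 they had 0.67, -0.28 and -1.27.

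Among genes of the RhoA switch, 0 of 13 passed over all libraries, with a median of -0.09. Rhoa itself had 7870 to 10313 normalized counts in wild-type against 8128 to 8432 in mutant libraries (log2 -0.07, SE 0.16), with -0.18 and 0.03 against the first and the second pair. The exchange factors Arhgef1 and Arhgef2 had -0.71 (SE 0.47) and -0.48 (SE 0.25). They had 0.09 and -0.09 against WT1 and WT2 and -1.51 and -0.87 against WT3 and WT4. Without WT3 and WT4, limma called 1 member, Rhob, an immediate early GTPase gene, higher in the mutant by 1.75 on the log2 scale. Rhob had 593 and 871 normalized counts in WT1 and WT2, 8013 and 8018 in WT3 and WT4, and 2773, 3112 and 1636 in M1 to M3, so its direction turned with the pair (-1.73 against WT3 and WT4).

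Actin and its filament partners gave 0 of 16 passing genes and a median of 0.02. Actb, Pfn1 and Cfl1, which encode beta-actin, profilin and cofilin, had 0.35 (SE 0.31), 0.38 (SE 0.41) and 0.17 (SE 0.25). Against WT1 and WT2 they had -0.16, -0.28 and -0.20, and against WT3 and WT4 they had 0.86, 1.04 and 0.53. Serum response factor and its cofactors, which control actin and light chain genes in other tissues, gave 0 of 7 passing genes and a median of -0.14. Elk3, Mrtfa and Elk4 had 0.06 (SE 0.17), -0.76 (SE 0.49) and -0.14 (SE 0.20). They had 0.24, 0.08 and 0.09 against WT1 and WT2 and -0.12, -1.60 and -0.36 against WT3 and WT4.

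**Figure D4:**
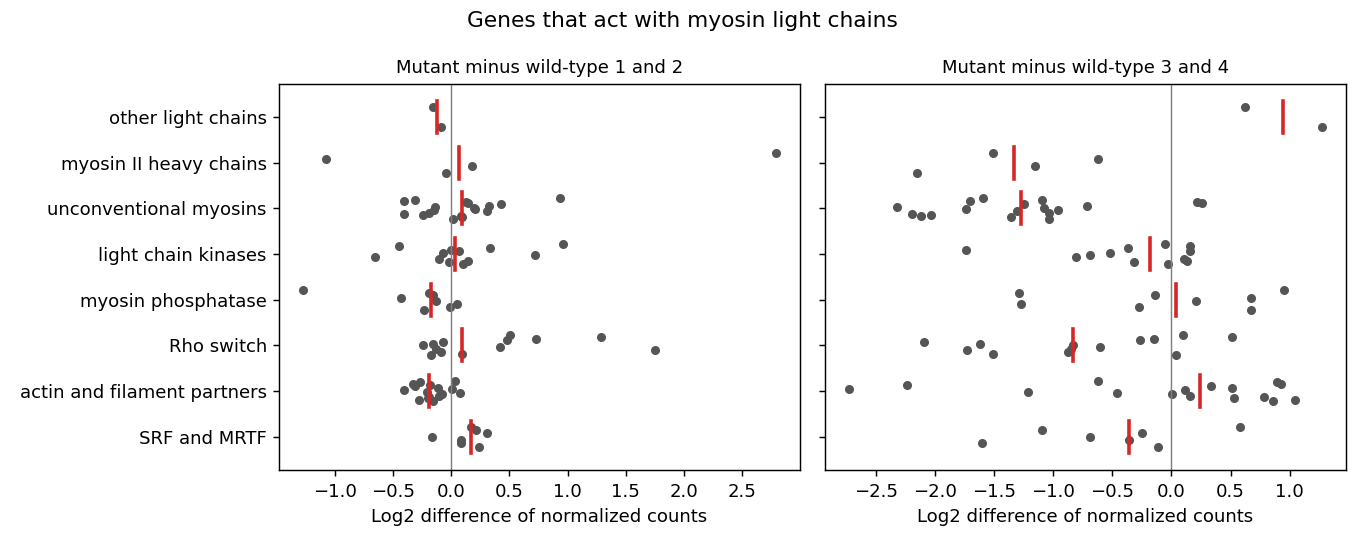
Log2 differences of normalized counts between the 3 mutant libraries and WT1 and WT2 (left) or WT3 and WT4 (right) for 8 lists of genes that act with myosin light chains; each point is 1 tested gene and the red bar is the list's median. The median of unconventional myosins is 0.09 on the left and -1.27 on the right; the point at 2.79 on the left is Myh14, whose reads were 0 in WT1 and WT2.

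Markers of other cell types were set beside Myl10. Lymphoid precursors, in which Myl10 was first described, had 12 of 21 markers in the gene table and 9 tested, of which 0 passed and 5 were positive. Their summed level was 2640 to 2913 normalized counts in wild-type against 3095 to 3202 in mutant libraries, so these sums did not overlap. Most of the sum came from Cd79b (866 to 1770) and Flt3 (620 to 1203). Dntt, which marks early lymphoid cells and did not pass the filter, had 8.31 to 36.7 in wild-type against 2.42 to 5.36 in mutant libraries. Vpreb1, of the surrogate light chain of B cell precursors, had 65.6, 66.5, 43.4 and 36.6 in the wild-type and 87.5, 70.5 and 139 in the mutant libraries, which did not overlap. Lck, a T cell kinase, had 388 to 517 and 522 to 574, also without overlap. Cd79a, the other chain of the B cell receptor complex, was lower, with 9.83 to 21.6 and 2.24 to 8.93. Of the 9 tested markers 2 were higher and 1 was lower without overlap, beside 5.23% and 4.34% of all genes. The part of these cells in the Myl10 difference was not tested.

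The marker lists that follow overlapped between groups by their summed level. Muscle markers were scarce: 4 striated muscle markers summed to 84.1 to 177 normalized counts in wild-type against 111 to 140 in mutant libraries. Smooth muscle and stroma had 3 of 11 markers measured, with sums of 127 to 1099 and 255 to 329, from Col1a2 and Pdgfrb and highest in WT3 and WT4. Erythroid markers summed to 1147 to 3505 and 1502 to 2470. Endothelial genes summed to 9238 to 16337 and 11217 to 12132. Neutrophil and monocyte markers, led by Lyz2 and Ngp, summed to 58581 to 102472 and 23037 to 68753, with 5 of 13 lower without overlap beside 4.34% of all genes. With no covariate, limma over all 7 libraries called no gene of these lists or of those of stem cells and megakaryocytes. With the title series as a covariate it called 10 of 13 neutrophil and monocyte markers (9 lower), 5 of 11 stem cell, 4 of 6 endothelial, 2 of 9 lymphoid, 1 of 10 erythroid and 1 of 10 megakaryocyte markers, beside 22.4% of all genes. Itga2b, an integrin of platelets, was called lower in that fit. It was also called lower without WT3 and WT4, beside 0.081% of all genes. With the length slope as a covariate 2 of 10 megakaryocyte markers, Itga2b among them, were called lower, beside 0.174%. DESeq2 called Itga2b and 1 of 13 neutrophil and monocyte markers lower, beside 0.374%. Without WT1 and WT2 every marker list but that of striated muscle had called genes, beside 42.6% of all genes. The part of these markers in the Myl10 difference was not tested.

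The genes most like Myl10 were ranked by Pearson's r of log2 values over the 7 libraries, among 16047 genes, all measured in the same libraries. Among the 5 highest were E130310I04Rik (r = 0.990), Gm45778 (0.983), 1700086P04Rik (0.983) and Trib3 (0.980). E130310I04Rik, an antisense transcript on chromosome 16, had 15.3 to 40.9 normalized counts in wild-type against 58.0 to 90.6 in mutant libraries. Gm45778, a processed pseudogene on chromosome 8 whose reads may be shared with its parent gene, had 25.1, 79.0, 194 and 113 in WT1 to WT4 and 449, 189 and 587 in M1 to M3, so that M2 lay below WT3. Trib3, a pseudokinase gene induced by endoplasmic reticulum stress, had 429, 467, 603 and 574 in WT1 to WT4 and 961, 748 and 893 in M1 to M3. Its log2 difference of 0.75 was smaller than that of Myl10, and WT1 and WT2, WT3 and WT4, and the mutant libraries stood in the same order. Trib3 was picked for its r with Myl10 over these same 7 libraries, so the shared order largely follows from the ranking. It adds no separate support, and a link of Myl10 to endoplasmic reticulum stress was not tested. Among the other 4 measured members, r with Myl10 ran from 0.14 for Myl12b to 0.61 for Myl4.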

How the data were processed

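Sorted stem cell RNA was measured by unstranded RNA sequencing in 4 wild-type and 3 mutant libraries, grouped by the genotype label. The submitters' processing notes name the build GRCm38, DESeq2 1.12.4, Cufflinks 2.2.1, HTSeq 0.6.1, STAR 2.7.3a and FastQC 0.11.7, without their options. Gene values, as deposited, are a signal in normalized counts. In each library 100% of values were whole multiples of a step within 0.01 reads, so whole reads were recovered. The second deposited table gives FPKM for 66660 transcripts. Limma 3.58.1 in R 4.3.3 was fitted with a variance trend to log2(normalized count + 1) for genes with at least 10 in at least 3 libraries, and to log2(FPKM + 1) for transcripts with at least 1 in at least 3. Tests were two-sided with Benjamini-Hochberg adjustment at 0.05. SE is limma's. The pseudocount lowers the fold of low genes. EdgeR 4.0.16 and DESeq2 1.42.0 were run on recovered reads. Positions came from GENCODE vM21 and 250-base windows from RefSeq (GRCm38.p6). The limma fit was tested on simulated data. Alternatives changed the pseudocount, filter, scaling, test, covariates and libraries. The members, lists, naming rule (all members, the 3 most abundant of each list and any that passed, the 2 most abundant markers, neighbours, and the 5 genes most correlated with Myl10) and the split of the wild-type libraries were chosen with earlier results of these data known, and a gene that goes beyond the rule (Rhob, Cit, Myh14, Ly6a, Dntt, Vpreb1, Lck, Cd79a) was named after its values were seen. A few results of these lists are not reported here.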

Additional observations from a re-analysis of the deposited data

How the results depend on the processing

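Libraries are named as above, WT for wild-type and M for mutant. The count of genes past the threshold over all 7 libraries was 0 with limma under each change of pseudocount, filter or scaling, with edgeR and with any 1 library left out. It was 107 with DESeq2, 51 once WT3 and WT4 were left out, 6828 without WT1 and WT2, 3597 with the title series and 127 with the length slope as a covariate. For transcript models the count of 0 became 2 without WT3 and WT4, 6778 without WT1 and WT2, and 0 to 1 with 1 library left out (1 without M2). The log2 difference of Myl10 was positive in 19 of 19 alternatives, from 1.86 to 3.92, and 2.39 to 3.38 with 1 library left out. Leaving out libraries could not turn the sign of Myl10, because its groups do not overlap in the gene counts. The log2 differences of Myl6, Myl12a and Myl4 were also positive in 19 of 19, and that of Myl12b in 18. The lowest were 0.0084 (SE 0.11) for Myl6 and 0.0083 (SE 0.19) for Myl12a, which give no clear direction. Without WT3 and WT4, Myl12a differed by 0.0083 and Myl12b by -0.013, whereas leaving out WT1 and WT2 gave 0.90 and 0.80. The cause was not tested. The comparison of the wild-type pairs stayed within 1.5 times its count in all alternatives. No paired analysis was possible because no replicate number in the titles is shared between the groups. Myl4, with 68 to 116 reads per library, is the member most limited by depth.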
